A study of Homo sapiens with 4 samples.

Results

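CCND2 encodes cyclin D2, and the part of its transcript described here is the set of regions recovered by iCLIP for the RNA helicase MOV10 in HEK293F cells. The regions were chosen by position: a listed region belonged to CCND2 if it overlapped chr12:4382902-4414522 on the plus strand of hg19. The list gave 4 such regions of 1181, and they held 62 of the 10053 reads of both experiments. The study has 4 libraries of HEK293F, a human embryonic kidney line grown in suspension: each of 2 experiments, numbered by the labels as replicates 1 and 2, gave one library from a MOV10 pull-down and another from a control pull-down. The MOV10 groups were precipitated with an antibody to MOV10, and the control groups with an irrelevant rabbit antibody to zebra finch FMRP; cells of all groups were cross-linked with UV light. Each deposited read list is tied by the labels to the MOV10 and the control library of its experiment together, and no column tells them apart. Every value is therefore a value of an experiment, and no region is described as enriched by the MOV10 antibody. The list of regions holds only those with reads in both experiments, so the presence of CCND2 reads in both is a property of the list and not a finding.

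Cyclin D2 is a D-type cyclin that binds and activates the kinases CDK4 and CDK6, which phosphorylate the retinoblastoma protein as cells pass from the first gap phase into DNA synthesis. Its messenger RNA has a long 3' UTR, the stretch after the stop codon through which RNA-binding proteins and microRNAs set the stability and translation of a transcript. MOV10 is an ATP-dependent helicase that moves along single-stranded RNA and is known to associate with Argonaute proteins and with 3' UTRs. In iCLIP, reverse transcription tends to stop at the base linked to the protein, which places that base just before the 5' end of a read, while the 3' end depends on where the RNA was cut.

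The 4 regions lay together near the 3' limit of the gene. Region 1 ran from 4412471 to 4412508 on chromosome 12 (38 nt), region 2 from 4412521 to 4412603 (83 nt), region 3 from 4413393 to 4413442 (50 nt) and region 4 from 4414088 to 4414123 (36 nt). Together they covered 207 nt within a span of 1653 nt. The first base of region 1 lay 2051 nt from the 3' limit of CCND2, and the last base of region 4 lay 399 nt from it. The upstream 29569 nt of the gene held no listed region, and 0 regions of the minus strand lay within the gene's limits. The nearest listed regions of the plus strand outside the gene were far away, 2485278 nt upstream (2 reads in experiment 1 and 1 in experiment 2) and 2231143 nt downstream (3 and 1).

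These distances can be set beside the length of the 3' UTR, although the annotation used here is of another build. In GENCODE release 29 on GRCh38, the coding transcript of CCND2 with the longest 3' UTR has 5 exons. Its 3' UTR is 5341 nt long, all of it in a last exon of 5491 nt. Of 19706 genes with a coding transcript, each taken by its longest 3' UTR, 5.51% have a longer one, and the median is 1050 nt. The gene span of the rule on hg19, 31621 nt, is 42 nt longer than the span of that transcript. By length alone, region 1 thus began 2051 nt before the end of a gene whose 3' UTR is 5341 nt long, and the 4 regions lay in the last 38.4% of that length. This difference in span is far smaller than the 3290 nt between the start of region 1 and the start of a 3' UTR of that length. No position was carried from one build to the other.

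The bases of the regions themselves were not read, because no hg19 sequence was used here. Short motifs of the 3' UTR of that transcript are shown to place known elements on the same scale, by their distance from the transcript's 3' end. The search covered the sense strand, none of the matches overlapped another, and the same search was made in the last 5341 nt of the 1088 transcripts, 1 for each gene, whose 3' UTR is at least as long. The first 4 sequences are the matches in the part of the 3' UTR where the regions lie, with the motif in capitals: the Pumilio element TGTANATA, the AU-rich heptamer TATTTAT and the polyadenylation hexamer AATAAA.
Pumilio element: ttatgtcaTGTAAATAattgattt
AU-rich heptamer: caagaggaTATTTATtacttcct
upstream hexamer: tttggggaAATAAAgtgcctta
distal hexamer: atttggacAATAAActcacctt

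The Pumilio element, bound by proteins of the PUM family that promote decay of a messenger RNA, occurred 1 time, with its last base 1161 nt from the transcript's end. Region 3 ran from 1129 to 1080 nt from the hg19 limit. The difference between these distances is smaller than the 42 nt by which the gene spans differ, so whether the element lies in or beside region 3 was not determined. The AU-rich heptamer lay 841 nt from the end, between the distances of regions 3 and 4. The upstream hexamer, a signal for cleavage and polyadenylation, lay 614 nt from the end. The distances of regions 1 to 3 were all larger and those of region 4 (434 to 399 nt) smaller. By distance alone, region 4 thus fell between this hexamer and the distal one, 13 nt from the end. The 42 nt is a difference in span, and whether the hg19 limit and the transcript's end are the same base was not checked. A further AATAAA stood 5159 nt from the end. AATAAA occurred in 98.4% of the 1088 compared 3' UTR ends (median of 5 matches against 3 in CCND2), TGTANATA in 62.5% and TATTTAT in 70.9%. A match of this kind is a description of the letters and was not tested as a binding site.

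Seed matches of 5 microRNA families were placed in the same way, since Argonaute and its microRNAs act on 3' UTRs. A match is the DNA form of the reverse complement of bases 2 to 8 of the mature microRNA (RefSeq, GRCh38.p14), and other kinds of match were not searched. The nearest to the regions was the second of the 2 matches of miR-29a, 2776 nt from the transcript's end, shown with the seed and its match in capitals.
hsa-miR-29a-3p: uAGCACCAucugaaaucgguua
second match in the 3' UTR: agcaagcagcgtttaTGGTGCTt

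The other match of miR-29a lay 4429 nt from the end. The match of miR-16 (TGCTGCT) lay 3571 nt, that of miR-26a (TACTTGA) lay 3938 nt and that of miR-17 (GCACTTT) lay 4367 nt from the end, while let-7a (CTACCTC) had 0 matches. By distance alone, all 5 matches thus lay farther from the transcript's 3' end than region 1 did from the hg19 limit (2051 nt). Of the 1088 compared 3' UTR ends, 33.8% held a match of miR-29a, 50.3% of miR-16, 33.3% of miR-26a, 61.3% of miR-17 and 28.8% of let-7a.

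The regions were unevenly filled, and the experiments differed most in region 3. Region 1 had 2 reads in experiment 1 and 1 in experiment 2. Region 2 held 5 and 3 reads. Region 3 had 2 reads in experiment 1 against 45 in experiment 2. Region 4 held 1 and 3 reads. In experiment 1, region 2 was the fullest and no region stood far from the others. In experiment 2, region 3 alone held 45 of the 52 CCND2 reads, and 19 of the 1181 listed regions held more. The median over all listed regions was 2 reads for experiment 1 and 1 for experiment 2. Region 1 was at these medians, region 2 was above them in both experiments, and region 4 was below in experiment 1 and above in experiment 2.

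**Figure D1:**
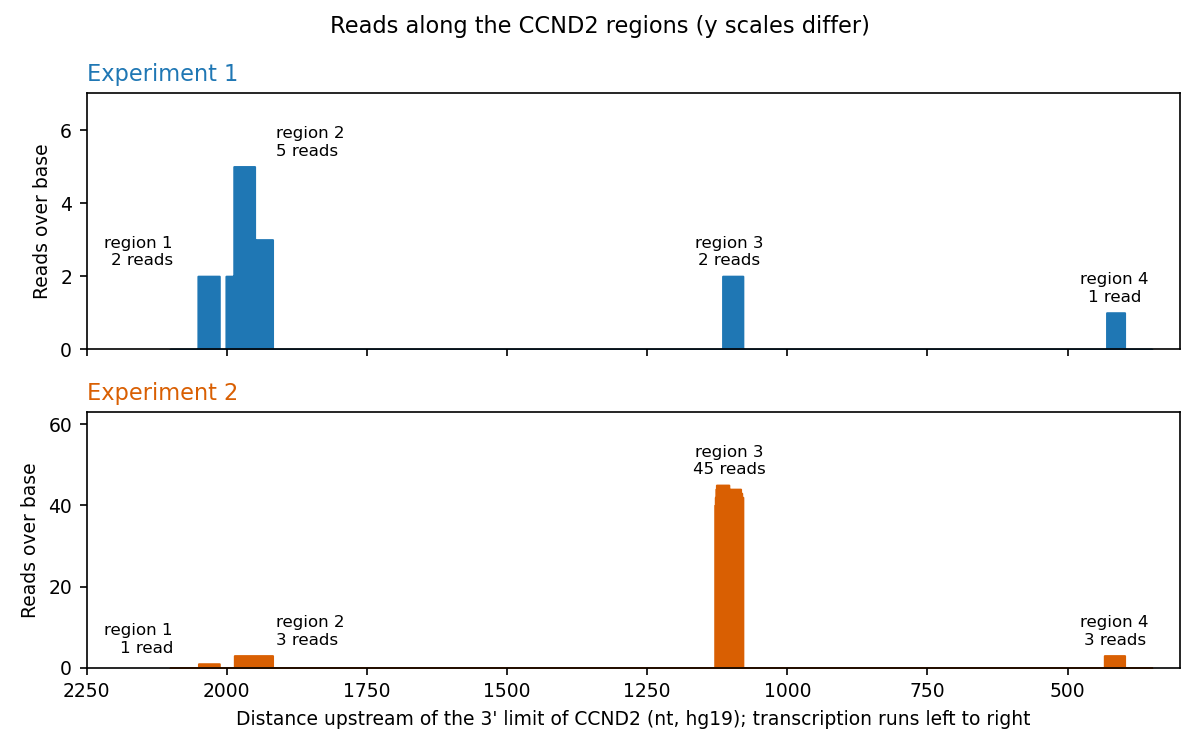
Number of reads over each base (y axis, on a different scale for each experiment) against the distance upstream of the 3' limit of CCND2 on hg19 (x axis, nt), with the reads of each region written above it. Experiment 1 peaks in region 2 with 5 reads, and experiment 2 in region 3 with 45.

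As a share of all listed reads, CCND2 made up 0.249% of the 4021 reads of experiment 1 (95% exact Clopper-Pearson interval 0.119 to 0.457) and 0.862% of the 6032 of experiment 2 (interval 0.644 to 1.13). With these totals, region 3 decided this order. Without it, the gene held 8 reads in experiment 1, a share of 0.199% (interval 0.0859 to 0.392), and 7 in experiment 2, a share of 0.116% (interval 0.0467 to 0.239), and these intervals overlap. The intervals cover counting error only, and the totals are the reads inside listed regions, not library depth. With the regions of at least 50 reads left out, the totals were 3587 in experiment 1 and 2552 in experiment 2. The order of the shares without region 3 therefore depends on the totals used. The number of reads at a region depends on how much of the RNA the cells held and on how much of it was recovered, and these cannot be told apart here.

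Region by region, the share of reads was compared between experiments by a two-sided Fisher's exact test with Benjamini-Hochberg adjustment over all 1181 regions. The experiments are replicates of the same pull-downs, so a difference is one between 2 read lists and not between conditions. Of the 4 CCND2 regions, 1 passed the threshold of 0.05, against 4.57% of all listed regions in either direction and 2.12% with a higher share in experiment 2. It was region 3, with 0.0497% of reads in experiment 1 (interval 0.00602 to 0.18) and 0.746% in experiment 2 (interval 0.545 to 0.997). The log2 ratio of its shares, experiment 2 over experiment 1, was 3.91 (Fisher's exact test, adjusted p = 1.29e-06). Reads with the same ends were counted as independent in this test, so this p-value can be too small. Region 1 (log2 ratio -1.59, Fisher's exact test, adjusted p = 0.997), region 2 (log2 ratio -1.32, Fisher's exact test, adjusted p = 0.874) and region 4 (log2 ratio 1.00, Fisher's exact test, adjusted p = 1) did not pass. With 1 to 5 reads in each experiment, differences as small as those seen in regions 1, 2 and 4 were not detectable at this depth. The call of region 3 held with reads of mapping quality 30 or more alone (4.46% of regions called) and with the regions of at least 50 reads left out of the totals (1.21% called).

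**Figure D2:**
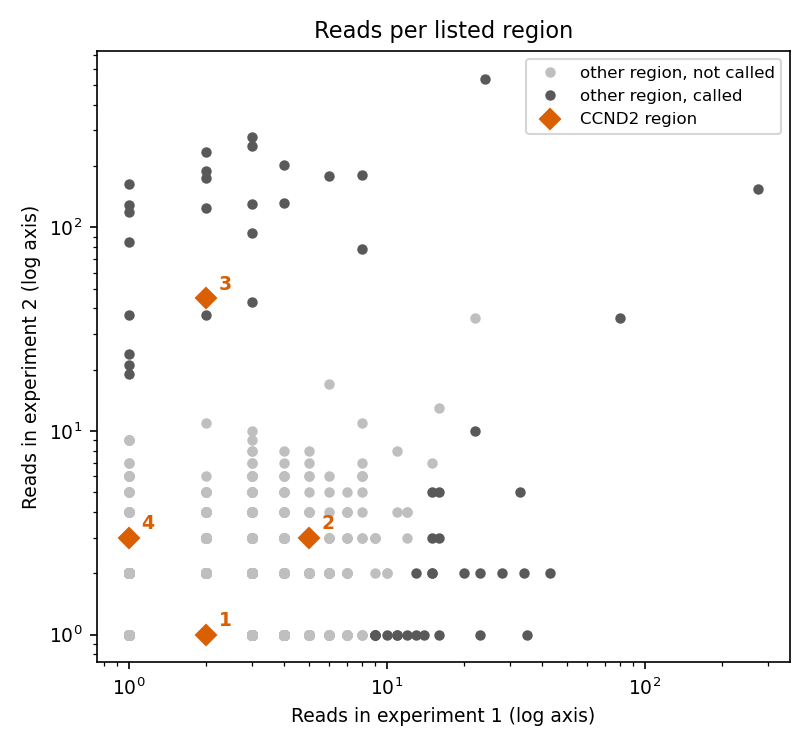
Reads of each of the 1181 listed regions in experiment 1 (x axis) and experiment 2 (y axis), both on log axes; dark points are regions whose share of reads differed (Fisher's exact test, adjusted p under 0.05) and diamonds are the 4 CCND2 regions by number. Region 3 (2 and 45 reads) stands among the called points of the upper left, and regions 1, 2 and 4 lie among those not called.

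Many of the reads of region 3 shared their ends, which bears on what they count. Each line of a read list is a differently named read, and the name carries a number read here as the copies of that sequence. In experiment 2, 37 of the 45 reads of region 3 (82.2%) ran from 4413393 to 4413442, and these 37 held 470 of the 478 copies. Reads with 222 and 203 copies together made up 425 copies, or 88.9%. Another 36 reads had 1 copy each, 5 had 2, 1 had 3 and 1 had 4. The region thus consisted of a fragment with the same ends many times over, with a few neighbours. In experiment 1, both reads had 1 copy and the same ends.

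Counted as distinct fragments, meaning that reads with the same ends count once, the contrast was smaller. Regions 1 to 4 held 1, 2, 1 and 1 distinct fragments in experiment 1 and 1, 1, 7 and 1 in experiment 2. At least 2 fragments in experiment 1, as in region 2, were found in 24.9% of all listed regions, and at least 2 in experiment 2, as in region 3, in 12.8%. A single fragment in each experiment, as in regions 1 and 4, was the case for 67.7%. By distinct fragments, 0 of the 4 CCND2 regions differed between experiments (Fisher's exact test, adjusted p under 0.05), against 0.423% of all regions, and 1 of 4 did so at an unadjusted p under 0.05, against 2.03% of all regions. That was region 3, with a log2 ratio of 2.93 (Fisher's exact test, p = 0.032, adjusted p = 1). The call of region 3 therefore holds for reads and not for distinct fragments. By summed copies, CCND2 had 11 in experiment 1 and 488 in experiment 2, of which region 3 held 2 and 478. All listed reads summed to 16518 copies in experiment 1 and 88074 in experiment 2, so the CCND2 shares were 0.0666% and 0.554%.

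**Figure D3:**
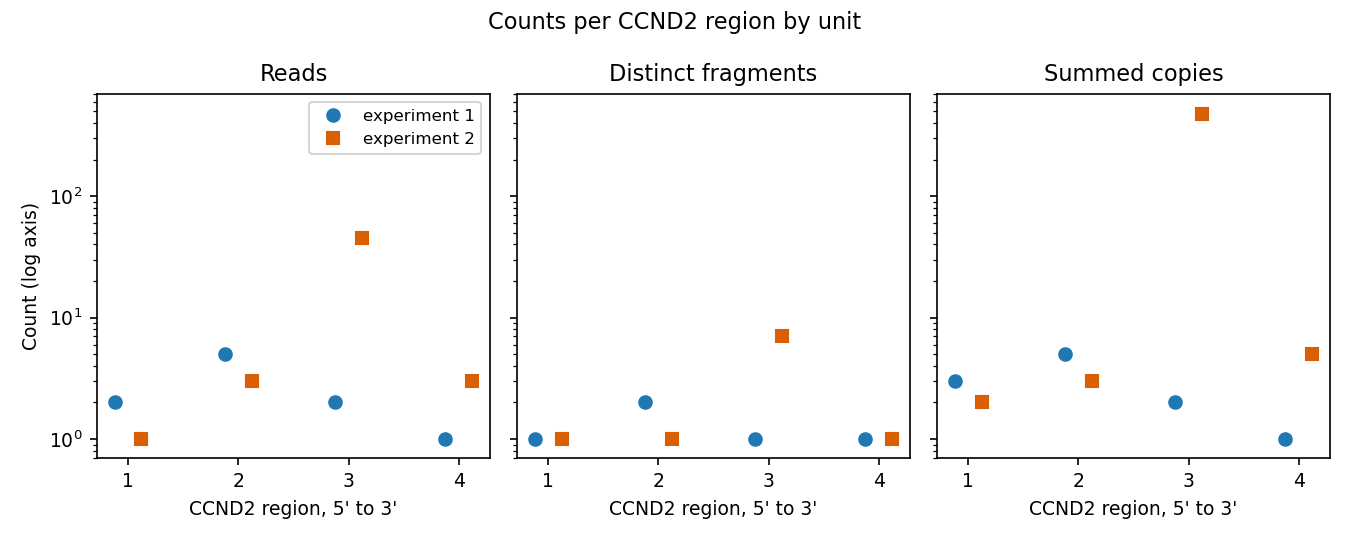
Reads, distinct fragments and summed copies (3 panels, y axis on a log scale) of the 4 CCND2 regions in order along the gene (x axis), with circles for experiment 1 and squares for experiment 2. In region 3 the values of experiments 1 and 2 are 2 and 45 reads, 1 and 7 fragments, and 2 and 478 copies, while the other regions stay between 1 and 5 in every unit.

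Read names also fall into 3 groups by how they begin (06, 07 or no such prefix), and what these groups are is not given in the sources used here. Region 3 held 20 reads of experiment 2 named 06 and 20 named 07, and 5 without a prefix. Reads of 222 and 203 copies came from the groups 06 and 07, and the 5 reads without a prefix summed to 7 copies. In experiment 1 it held 0, 1 and 1 reads in these groups, and 0 of 1309 reads named 06 allows a share of up to 0.229%, taken as 3 counts of the total and not as a Clopper-Pearson bound. The share differed in the group 06 (Fisher's exact test, adjusted p = 0.00198, with 2.73% of regions called) and in the group 07 (log2 ratio 3.61, Fisher's exact test, adjusted p = 0.041, with 2.45% called). It did not pass in reads without a prefix (log2 ratio 1.87, Fisher's exact test, adjusted p = 0.873, with 2.56% called). In experiment 2, the 20 reads named 06 made only 3 distinct fragments and the 20 named 07 only 5. Reads with the same ends were counted as independent here too, so these p-values can be too small. The most read fragment of region 3 occurred in all 3 groups, as did the only fragment of region 4 in experiment 2 and the longer fragment of region 2 in experiment 1.

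The 5' and 3' ends of the fragments were compared between experiments. In region 1, both reads of experiment 1 began at 4412471, and the read of experiment 2 began at 4412472. All 3 ended at 4412508. In region 2, experiment 1 had fragments beginning at 4412521 (2 reads, ending at 4412571) and at 4412535 (3 reads, ending at 4412603), 14 nt apart. All 3 reads of experiment 2 began at 4412536 and ended at 4412603. The upstream fragment of region 2 was thus seen in experiment 1 alone, with 2 reads. In regions 1 and 2, a fragment of experiment 2 began 1 nt downstream of one of experiment 1 and ended at the same base.

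Regions 3 and 4 shared 3' ends between experiments but not 5' ends. In region 3, both reads of experiment 1 began at 4413407. Of the 45 reads of experiment 2, 40 began at 4413393, 2 at 4413394, 2 at 4413395 and 1 at 4413396, so its 4 start positions lay within 3 nt and the main one lay 14 nt upstream of the start in experiment 1. The 3' end was 4413442 in both reads of experiment 1 and in 42 reads of experiment 2, and the other 3 reads ended at 4413417, 4413438 and 4413440. In region 4, the read of experiment 1 began at 4414092 and all 3 of experiment 2 began 4 nt upstream, at 4414088. All 4 reads ended at 4414123.

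**Figure D4:**
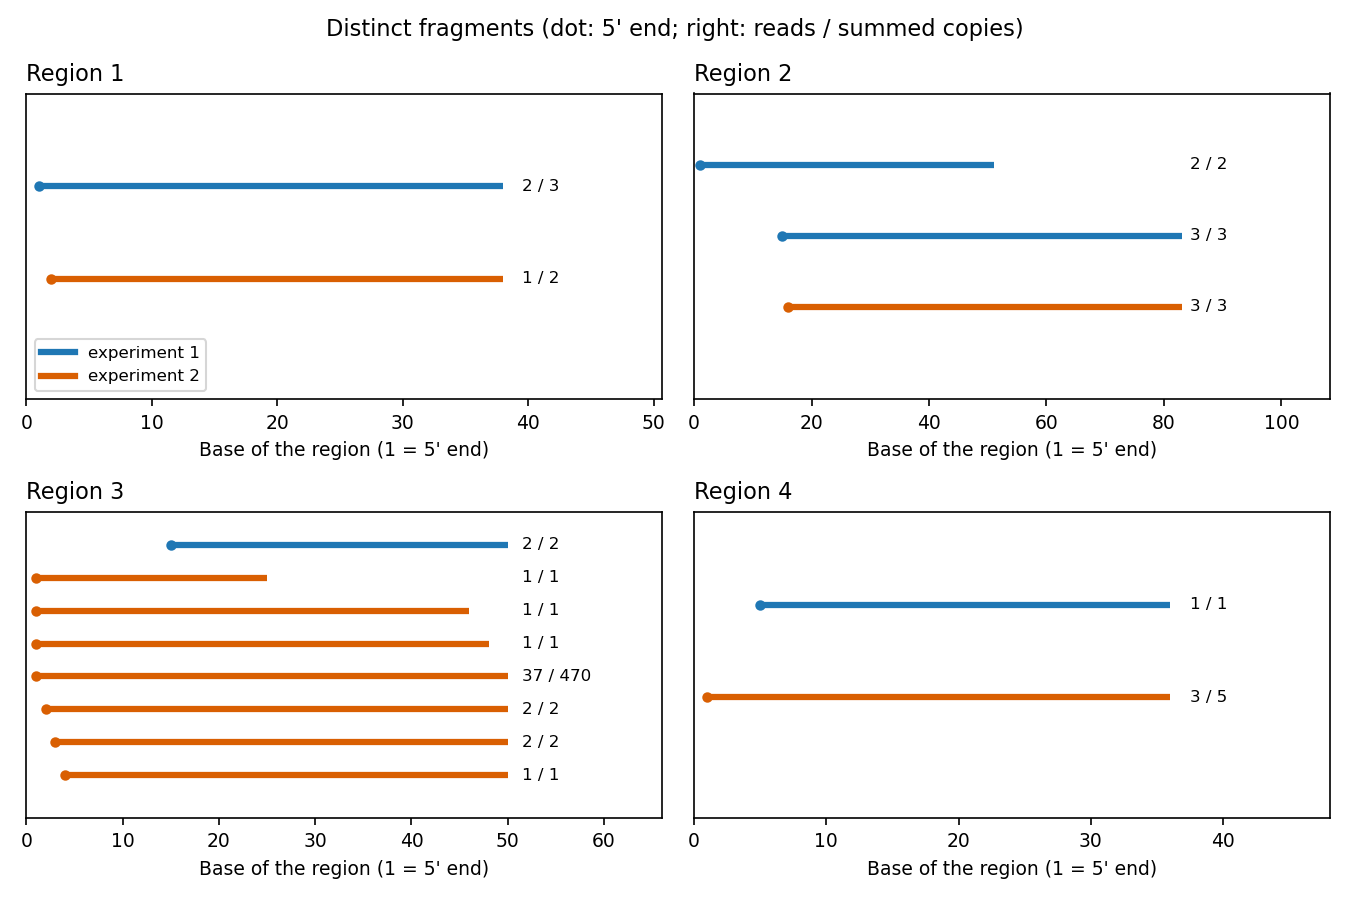
Distinct fragments of each CCND2 region, drawn to scale from the first base of the region (x axis, nt), with a dot at the 5' end and, at the right, reads and summed copies. Regions 1 and 2 have 5' ends 1 nt apart in the 2 experiments, region 3 has them 14 nt apart for the fragment with 37 reads, and region 4 has them 4 nt apart.

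Fragments were taken to match between experiments when they ended at 1 common base and began at a common base, or when that of experiment 2 began 1 nt further downstream. Such matching ends were found in 2 of the 4 CCND2 regions, against 86.3% of all listed regions. With the same base required at both ends, 0 of 4 matched, against 18.9% of all. Most listed regions thus matched only with the 1 nt offset, as regions 1 and 2 did. Regions 3 and 4 belonged to the 3.9% of regions (46 of 1181) whose experiments shared a 3' end with the 5' ends at other offsets. In 11 regions of the list (0.931%), every such 5' end of experiment 2 lay upstream of that of experiment 1, and regions 3 and 4 were among these 11. This class was defined after the CCND2 values had been seen, and no test was made of it. Regions 3 and 4 rest on 2 and 1 reads in experiment 1.

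Mapping was near its ceiling throughout the gene. The deposited score, a whole number from 0 to 70 read here as mapping quality, was 70 for 61 of the 62 CCND2 reads and 56 for the remaining one, a read of region 3 in experiment 2. That read was the shortest fragment of the gene, 25 nt long and the one ending at 4413417. In the whole lists, 58.2% of reads in experiment 1 and 46.5% in experiment 2 had a score of 70, and 14.8% and 18.9% lay under 30. All reads of regions 1, 2 and 4 were at 70 in both experiments, as were those of 47.1% of listed regions. Distinct CCND2 fragments were 32 to 69 nt long in experiment 1 and 25 to 68 nt in experiment 2, with medians of 38 and 47.5 nt against 36 and 35 nt in the whole lists. Region 3 supplied 7 of the 10 fragments of experiment 2.

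The spacing of the regions was uneven. Regions 1 and 2 were 12 nt apart, regions 2 and 3 were 789 nt apart, and regions 3 and 4 were 645 nt apart. Where neighbours up to 1000 nt apart were joined, the 4 regions made 1 locus, 1 of the 9 loci with at least 4 regions among 1079. With a limit of 500 nt they made 3. At least 4 regions within the 1653 nt spanned by CCND2 were found in 8 other loci, and each of these windows also held 4. By reads, the leading 3 were chromosome X, minus strand, from 73064448 to 73065942 (9 reads in experiment 1 and 239 in experiment 2), chromosome 16, plus strand, from 29821786 to 29822264 (24 and 92) and chromosome 17, plus strand, from 47130426 to 47132071 (75 and 16). CCND2, with 10 and 52 reads, came after 4 of these 8. In these 3 loci the fullest region held 236 of 239, 78 of 92 and 10 of 16 reads of experiment 2, beside 45 of 52 in CCND2. The chromosome 1 locus, minus strand, from 205684333 to 205685737, which also ranked above CCND2 and was added after its values were seen, had 37 of 43 in its fullest region. Matching ends were found in 2, 2, 3 and 3 of the 4 regions of these loci.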

How the data were processed

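Per the labels, RNA from MOV10 and control pull-downs was made into 4 barcoded iCLIP libraries and sequenced on a HiSeq2000. The submitters' processing notes name build hg19 and the tools bedtools, SAMtools, Novoalign and CASAVA 1.8.2. How regions were called, and whether control reads were used, is not stated there. The authors deposited 2 read lists with a score per read, a whole number from 0 to 70 taken as mapping quality from its values, and a list of 1181 regions without values. Positions are 1-based. Each read list pools both pull-downs of its experiment.

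Each read was assigned to the region it overlapped, and reads, distinct fragments and summed copies were counted. Each region's share of reads was tested between experiments (Fisher's exact test, two-sided) and p-values were adjusted after Benjamini and Hochberg across the 1181 regions. Alternatives that left out reads or regions were adjusted across the regions they kept. These ranged from 978 (names without a prefix) to 1161 (without regions of at least 50 reads). The procedure was tested on simulated reads drawn independently, which does not cover reads that share their ends. Reads with the same ends are not independent, so these p-values can be too small. The named gene is CCND2 alone, with each region given by position, and like loci were taken by number of regions and then reads. The gene, motifs and microRNA families were chosen with earlier results of these data known. Alternatives covered mapping quality, overlap, unit counted, group of read names, totals, offset and joining gap. Lengths and transcript sequences came from GENCODE release 29 and RefSeq on GRCh38, with none of their positions. Tools were matplotlib 3.10.9, scipy 1.17.1, pandas 2.3.3, numpy 2.4.6 and Python 3.11.15.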

Additional observations from a re-analysis of the deposited data

How the results depend on the processing

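Of 27 alternatives to 7 results, 17 left the result as it was: its call, or a count or share close to the first value. Several settings were counted under both the call and the log2 ratio of region 3, so the 17 are not independent checks. The number of CCND2 regions was 4 at mapping quality 30 or more, wholly inside the gene, and without replicate 1 or 2 (4 in each). For the settings without a replicate, the list itself fixes this, since each region holds reads of both experiments. By distinct fragments, 0 CCND2 regions differed in share and the log2 ratio of region 3 was 2.93; in reads without a name prefix these values were 0 and 1.87, where only 6 reads of region 3 are left. For reads named 06 no log2 ratio could be had, since experiment 1 held none. With regions of at least 50 reads left out of the totals the log2 ratio of region 3 was 4.98 (Fisher's exact test, adjusted p = 2.5e-12). With mapping quality 30 or more it was 3.98 (Fisher's exact test, adjusted p = 6.88e-07). Both p-values can be too small, since reads with the same ends were counted as independent. The CCND2 share moved to 0.0666% by summed copies in experiment 1, and in experiment 2 to 0.604% by distinct fragments, 0.554% by copies and 0.116% without region 3, the last chosen after seeing the data. Matching ends fell to 0 regions at the same base, and a joining gap of 500 nt gave 3 loci in place of 1. A test on summed copies was not made, and no comparison of experiments can be made without replicate 1 or 2. No paired analysis was possible because each read list pools the MOV10 and control libraries. With 1 to 5 reads outside region 3, depth limits what differences can be seen.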

Other observations

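Region 3 of CCND2 can be set beside the 26 other listed regions that held at least 20 reads in experiment 2, a limit chosen after seeing the data. Its 45 reads lay below their median of 130 (range 21 to 539), its 7 distinct fragments below their median of 10 (range 4 to 60), and its 478 copies below their median of 2170. Its 2 most copied reads held 88.9% of copies, against 16.2% to 80% in the other 26. The share of reads in its most read fragment was 82.2%, within their range of 20.9% to 86.5%, with 21 of the 26 below it. Its median mapping quality in experiment 2 was 70, as in 11 of the 26, and the median of the 26 was 58. Matching ends in both experiments, absent from region 3, were found in 7 of the 26. These are values of single regions and were not tested.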
